A study of Mus musculus with 5 samples.

Results

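The transcripts described here encode the core of the splicing machinery and related RNA-binding proteins, measured in microvesicles of heart muscle cells and in the cells that released them. The members were all array probes whose platform gene symbol begins with Hnrnp, Snrp, Sf3a or Sf3b, or with Srsf, Lsm or Ddx followed by a digit. They numbered 152 probes of 87 genes, out of 25697 probes on the array, of which 23978 carry 1 symbol and stand for 16593 genes. The rule used names only and no measured value, though it was set with earlier results of these data known.

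The cells were HL-1, a line of mouse atrial cardiomyocytes that divides in culture, grown in Claycomb medium, with no treatment, genotype or time point distinguishing the groups. Total RNA of microvesicles was hybridised on 2 arrays and total RNA of the cells on 2 arrays. Terminal transferase added poly-T to DNA from the microvesicles, which could then pass through the RNA labelling, and 1 array was hybridised with it. Chip 1 held both cell arrays and microvesicle array 1, and chip 2 held microvesicle array 2 and the DNA array. All samples come from 1 cell line, and the labels do not say whether the 2 arrays of a group stem from different cultures. The p-values therefore measure the spread between these arrays, which may be technical.

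The spliceosome removes introns from pre-mRNA in the nucleus. Its small nuclear ribonucleoproteins (snRNPs) are built on rings of Sm proteins (Snrp genes) or LSm proteins, and the SF3a and SF3b complexes hold the U2 snRNP at the branch site. SR proteins (Srsf genes) mostly promote the use of exons, heterogeneous nuclear ribonucleoproteins (hnRNPs) coat the transcript and often oppose them, and DEAD-box helicases (Ddx genes) remodel RNA from splicing and ribosome assembly to translation and decay. Alternative splicing is known to remodel sarcomere and ion channel transcripts in heart muscle. The array measures the messages for these proteins, not the proteins or the splicing itself.

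The families were also compared in sequence, since a shared promoter element is a feature that the choice by name did not use. RefSeq promoters of GRCm38.p6, running from 250 bases before to 50 bases after a transcription start, were found by symbol for 77 of the 87 genes, with 102 starts. The ETS-type sequence CCGGAAG, or its reverse complement CTTCCGG, stood in 29 of the 102 (28.4%), in 24 genes. Of the 16535 promoters of all genes on the array 12.2% held it, as did 8.86% of all 32851 RefSeq promoters. Other motifs searched were nearer the background or absent. The letters CCAAT (or ATTGG) stood in 47.1% of the member promoters against 37.8% of those of array genes, and TATAAA (or TTTATA) in 10.8% against 11.9%. A palindromic NRF1-type motif stood in 0 of the 102 (1.43% of those of array genes), and C followed by 4 pyrimidines at the start in 2.94% against 2.18%. These motifs do not overlap each other in their letters, and a match describes the sequence only. Among the genes whose levels are described further on, Srsf5, Ddx39b, Ddx47 and Ddx27, with vesicle values below the cells, and Ddx50, with values above, carry the ETS-type letters close to the start. Their promoters are shown because they set the motif beside members from both ends of the RNA comparison. Each runs from 100 bases before to 20 bases after the start, 5′ to 3′ on the gene's strand, with the motif in capitals.

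Srsf5 (chr12:80945399-80945518, plus strand): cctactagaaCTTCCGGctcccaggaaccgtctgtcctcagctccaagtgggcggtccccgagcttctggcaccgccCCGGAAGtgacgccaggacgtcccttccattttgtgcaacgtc
Ddx39b (chr17:35241646-35241765, plus strand): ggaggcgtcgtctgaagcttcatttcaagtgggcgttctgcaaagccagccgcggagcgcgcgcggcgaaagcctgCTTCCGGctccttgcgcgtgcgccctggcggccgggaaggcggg
Ddx47 (chr6:135011512-135011631, plus strand): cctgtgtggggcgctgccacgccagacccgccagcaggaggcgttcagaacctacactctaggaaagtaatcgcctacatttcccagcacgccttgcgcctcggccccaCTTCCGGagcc
Ddx27 (chr2:167015213-167015332, plus strand): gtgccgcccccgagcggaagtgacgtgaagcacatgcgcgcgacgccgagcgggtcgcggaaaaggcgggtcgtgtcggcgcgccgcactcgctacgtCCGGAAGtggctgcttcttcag
Ddx50 (chr10:62651199-62651318, minus strand): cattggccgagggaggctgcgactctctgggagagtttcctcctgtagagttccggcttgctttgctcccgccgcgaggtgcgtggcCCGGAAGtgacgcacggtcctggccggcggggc

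Srsf5 holds the motif in both orientations within this window, and the other promoters shown hold it a single time. Ddx50 has a second annotated start, whose window holds no match. The promoter of Lsm6, also with vesicle values above the cells, held no match in the same window.

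The arrays set the limits of every value. Median raw signals were 62.6 to 70.2 on 4 arrays and 90.9 on microvesicle array 2, and detected probes (detection p under 0.01, a level that chance gives to 257 probes) ranged from 2024 on microvesicle array 1 to 5605 on microvesicle array 2 among the RNA arrays. The member probes rested on 18 to 62 beads each. On the cell arrays 10 of 14 cardiomyocyte markers were detected, while Ryr2 and Gata4 were detected on no RNA array. None of 9 fibroblast markers was detected on any array, 1 of 7 endothelial markers (Tek) on the cell arrays, and 0 to 1 of 7 leukocyte markers on any array. Of 6 smooth muscle markers 3 were detected on the cell arrays, among them Acta2, and Myh11 on no RNA array. Bulk arrays cannot tell fewer vesicles of a kind from less RNA in each vesicle.

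The first question was which of these transcripts were found in the vesicles at all. Splicing transcripts were detected more often than the average probe on every RNA array, and most often on microvesicle array 2. On microvesicle array 1, 21 of the 152 probes were detected (13.8%, against 7.88% of all probes), and on microvesicle array 2, 68 were (44.7%, against 21.8%). The cell arrays detected 47 (30.9%, against 16.3%) and 39 (25.7%, against 14.1%). The excess over all probes was thus present in vesicles and cells alike. No set test was run, and the shares describe these arrays only.

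**Figure D1:**
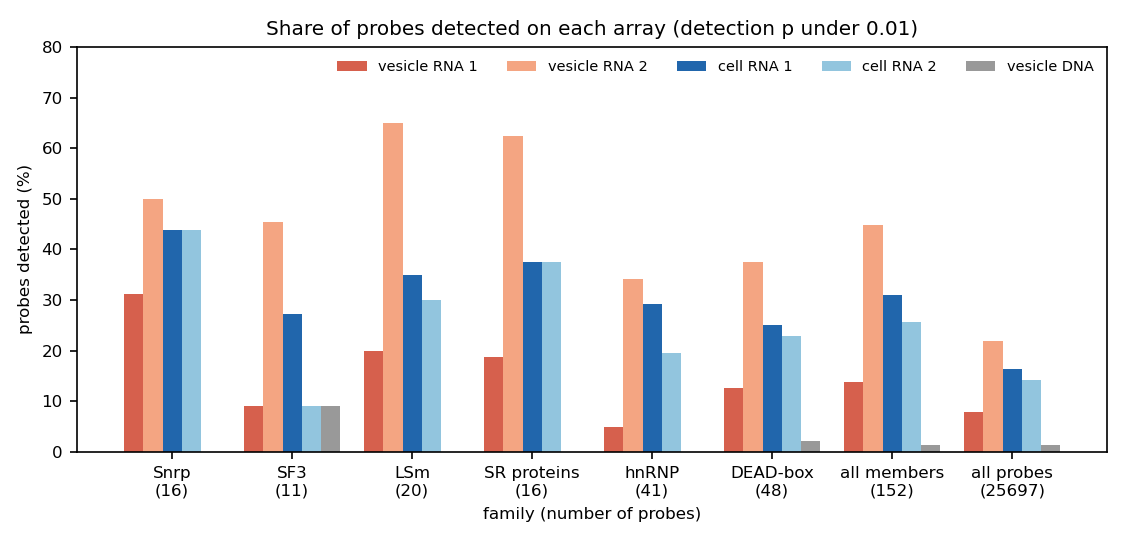
Bars give the percentage of a family's probes that were detected on each of the 5 arrays, with the number of probes under each family and the share over all 25697 probes at the right. LSm and SR protein probes reach the highest shares on microvesicle array 2 (13 of 20 and 10 of 16), and the DNA array detected 1 SF3 and 1 DEAD-box probe.

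Both vesicle arrays detected 19 member probes (12.5%, against 6.21% of all probes), and every one of those 19 was also detected on both cell arrays (5.96% of all probes were on all 4). None was detected on both vesicle arrays and neither cell array (0.101% of all probes). Both cell arrays detected 38 probes (25%, against 13.5%), of which 19 were on both vesicle arrays (50%, against 44.1% over all such probes) and 11 on neither (28.9%, against 30.3%). As shares of all probes, those 11 made up 7.24% (against 4.09%). A further 6 were on both cell arrays and microvesicle array 2 (3.95%, against 2.11%) and 2 on both cell arrays and microvesicle array 1 (1.32%, against 1.34%). No RNA array detected 67 of the 152 (44.1%, against 70.5%). The share of cell-detected splicing probes that was found in vesicles therefore stood near the background.

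By family, 5 of the 16 Snrp probes were detected on all 4 RNA arrays, as were 1 of 11 SF3 probes, 3 of 20 LSm probes, 3 of 16 SR protein probes, 2 of 41 hnRNP probes and 5 of 48 DEAD-box probes. Of the 87 genes, 23 had no probe detected on any RNA array. This count was not made over all genes on the array, so it cannot be read as a trait of these families. Over probes the share was 44.1%, against 70.5%. Among the 23 genes were Sf3b1, the subunit that contacts the branch site, Hnrnpu, a chromatin-associated hnRNP, and Snrpn, which encodes the Sm protein SmN of brain and heart. Ddx25, a helicase of male germ cells, was another. These genes, like others named outside the fixed rule, were picked after their values were seen.

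The second question was the level of each transcript in vesicles against cells. Raw values were background-corrected and quantile-normalized, and each gene is given on the log2 scale by its brightest tested probe. A probe was tested when at least 2 of the 4 RNA arrays detected it, which left 44 member probes of 36 genes. In 7 of these genes the chosen probe was detected on the cell arrays alone and entered only through them, so the counts that follow are a description. Both vesicle values of these 7 are background readings. The same holds for every gene given further on as at least some fold higher in cells. The limma p-values of such genes rest on the spread of background, not on that of a measured vesicle level. In 22 of the 36 genes both vesicle arrays lay below both cell arrays (61.1%, against 50.3% of the 3123 tested genes), and in 9 both lay above (25%, against 14.9%). Both vesicle arrays detected 5 of those 9 (Ddx17, Ddx50, Lsm6, Sf3b5 and Srsf1). For the other 4 (Ddx6, Hnrnpa1, Lsm2 and Sf3b3) the value on microvesicle array 1 was at background, where the lowest detected value was 6.51, so the place above the cells there is not a measured one. In raw signal, Ddx50 alone of the 5 was above both cell arrays on microvesicle array 1 (107 against 93.5 and 86.5). Ddx17, Sf3b5 and Srsf1 were below both there, and Lsm6 lay between them. Limma called 0 of the 36 at an adjusted p under 0.05, in either direction, where the background is 0% of the tested genes each way. At an unadjusted p under 0.05 it gave 9 lower (25%, against 21.3%) and 4 higher (11.1%, against 5.8%). A difference of at least 2-fold on both vesicle arrays was found in 11 genes for lower (30.6%, against 24.5%) and in 4 for higher (11.1%, against 6.82%).

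Among the 18 genes detected on all 4 RNA arrays, 11 lay below the cells (61.1%, against 35.3% of 1300 genes) and 5 above (27.8%, against 25.8%). In 14 of these 18 microvesicle array 1 was higher than microvesicle array 2 after quantile normalization (77.8%, against 81.7%). In raw signal it was higher for Lsm3, Lsm4 and Snrpd1 only, though the raw background of microvesicle array 2 was also higher.

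The median difference over the 36 genes was -1.18 on the log2 scale, against -0.84 over all tested genes. The vesicle arrays differed: the median was -0.49 on microvesicle array 1 and -1.76 on microvesicle array 2. All tested genes showed the same split, with -0.32 and -1.29. Over all 87 genes with no filter the median was -0.06, against 0.016 over all 16593 genes, with 32 below (36.8%, against 21.8%) and 15 above (17.2%, against 18.9%). Of these 87, 11 were at least 2-fold lower on both vesicle arrays (12.6%, against 4.66%) and 4 at least 2-fold higher (4.6%, against 1.48%). Across the 36 genes, microvesicle array 1 correlated with the cell arrays at 0.75 and 0.73 (Pearson), and microvesicle array 2 at 0.17 and 0.14. Over all tested genes the values were 0.80 and 0.80 for microvesicle array 1, and 0.34 and 0.31 for microvesicle array 2. Genes are no replicates and share their arrays, so these correlations are descriptions.

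With chip as a block, which leaves the contrast of microvesicle array 1 with the cells of the same chip, limma called 6 member genes higher (16.7%, against 26.3% of all tested genes) and 18 lower (50%, against 42.9%). That fit takes its spread from the cell arrays alone, and chip 2 held no cell array. The median absolute gap between the cell arrays was 0.17 over the tested member genes, against 1.13 between the vesicle arrays. Over all tested genes these gaps were 0.16 and 1.35. Scaling moved the level of all genes too. With median scaling in place of quantile normalization the median of all tested genes went from -0.84 to -1.28 and that of the members from -1.18 to -1.96, and 20 member genes were called lower (55.6%, against 42.7% of all tested genes) and 0 higher (against 0.192%). Both vesicle arrays then lay above both cell arrays in 1 member gene (2.79% of all tested genes) and below in 24 (66.2%).

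**Figure D2:**
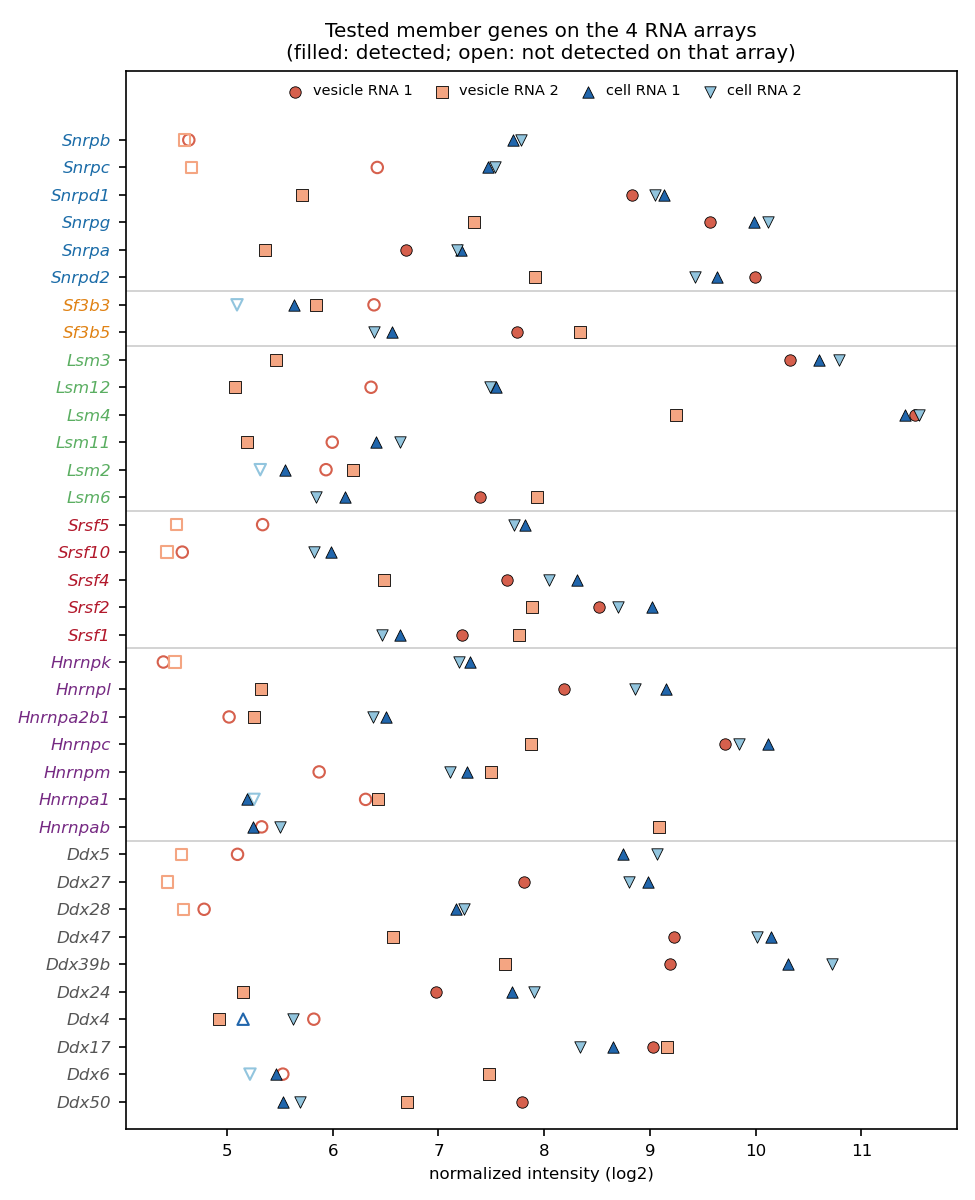
Normalized log2 intensity of the 36 tested genes on the 4 RNA arrays, grouped by family and ordered by their difference, with symbols filled where the probe was detected and open where it was not. The cell symbols nearly coincide, while the vesicle symbols of many genes, such as Lsm3 and Snrpd1, lie far apart.

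Of the Snrp genes, which encode the Sm ring and proteins of U1 and U2 snRNPs, 5 of the 6 tested lay below the cells on both vesicle arrays and none above. Snrpb, which encodes the Sm proteins SmB and SmB′, was at 4.64 and 4.60 on the vesicle arrays and at 7.70 and 7.78 on the cell arrays. Neither vesicle array detected this probe, so its vesicle values are background, while the cell values lay close together. A second Snrpb probe was detected on microvesicle array 2 alone and is described further on. By the first probe the cells were at least 4.12-fold higher, with vesicle and cell means of 4.62 and 7.74 (limma adjusted p = 0.0917). That p-value rests on background readings in the vesicles, as do those of the other genes detected in cells alone.

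The Sm ring genes Snrpg, Snrpd1 and Snrpd2 were detected on all 4 RNA arrays, Snrpd3 on microvesicle array 2 alone, and Snrpe, like Snrpn, on none. Snrpg was at 9.57 and 7.34 in vesicles and at 9.99 and 10.11 in cells, a difference of -1.60 ± 0.89 (SE, n = 2 per group). Snrpd1 was at 8.83 and 5.70 in vesicles and at 9.14 and 9.04 in cells (-1.82 ± 1.21). For both, microvesicle array 1 was just under the cells and microvesicle array 2 far under after quantile normalization. Without microvesicle array 2 these differences shrank to -0.48 and -0.26, and without microvesicle array 1 they grew to -2.71 and -3.39. Raw signals were far under the cells on microvesicle array 1 too. They were 244 against 1514 and 1267 for Snrpg, and 166 against 869 and 600 for Snrpd1. With median scaling the differences were -2.73 and -2.83. Snrpd2 was at 9.99 and 7.92 in vesicles and at 9.64 and 9.42 in cells (-0.58 ± 0.84), so that its groups overlapped. Its limma adjusted p was 0.663, and those of Snrpg and Snrpd1 were 0.309 and 0.370. With median scaling Snrpd2 lay below the cells on both vesicle arrays, at -1.75 (limma adjusted p = 0.0312). Under that scaling 42.7% of all tested genes were called lower.

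Among proteins particular to one snRNP, Snrpc, which encodes the C protein of the U1 snRNP and acts at the 5′ splice site, was detected in the cells alone. The cells were at least 3.51-fold higher, with values of 6.42 and 4.67 in vesicles and 7.47 and 7.54 in cells (limma adjusted p = 0.194). Snrpa, encoding the A protein of the U1 snRNP, was detected on all 4 RNA arrays at -1.17 ± 0.59.

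The SF3 genes had 2 of 9 tested. In 1 of them, Sf3b5, detected on all 4 arrays, both vesicle arrays lay above the cells after quantile normalization. With median scaling both genes overlapped the cells. Sf3b5, a small subunit of the SF3b complex, was at 7.75 and 8.34 in vesicles and at 6.56 and 6.39 in cells. All 4 arrays detected it, and the lower normalized vesicle value was above the higher cell value. Its raw signals were 106 and 499 in vesicles against 163 and 118 in cells. In raw signal microvesicle array 1 was thus below both cell arrays. The difference was 1.57 ± 0.39 (limma unadjusted p = 0.0204, adjusted p = 0.122), and 0.69 with median scaling. Sf3b3, a large scaffold subunit, was found above background on microvesicle array 2 and on cell array 1, with values of 6.39 and 5.84 in vesicles and 5.63 and 5.10 in cells (0.75 ± 0.43). Its value on microvesicle array 1 was background.

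The LSm genes were split. LSm proteins 2 to 8 form the ring on U6 snRNA, and with LSm1 in place of LSm8 the ring acts in cytoplasmic mRNA decay. Lsm6 was at 7.39 and 7.93 in vesicles and at 6.11 and 5.84 in cells, detected on all 4 arrays with no overlap. It was higher by 1.69 ± 0.39 (limma unadjusted p = 0.0159, adjusted p = 0.112), and by 0.97 with median scaling, where its groups overlapped. Its raw signals were 95.6 and 404 in vesicles against 127 and 91.2 in cells. Its ring partners Lsm3 and Lsm4 had the opposite sign. Lsm3 was at 10.32 and 5.46 in vesicles and at 10.60 and 10.78 in cells, and Lsm4 at 11.51 and 9.24 in vesicles and at 11.41 and 11.55 in cells.

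After quantile normalization microvesicle array 1 stood near the cells for both partners and microvesicle array 2 far below. The differences of -2.80 ± 1.85 and -1.10 ± 0.91 were smaller than the gaps between the vesicle arrays, 4.86 and 2.27. Without microvesicle array 2 they were -0.37 and 0.03. With median scaling they were -3.85 and -2.18, and both vesicle arrays lay below the cells for both genes. The raw signals of Lsm3 were 381 and 141 in vesicles against 2313 and 1977 in cells. Those of Lsm4 were 910 and 814 in vesicles against 3749 and 3251 in cells. Lsm2 was at 0.63 ± 0.34, undetected on microvesicle array 1. Lsm5, Lsm7 and Lsm8 were detected on microvesicle array 2 alone and Lsm1 on no RNA array. Of the other LSm proteins, Lsm11 of the U7 snRNP that processes histone messages was at -0.93 ± 0.45 and Lsm12 at -1.80 ± 0.58. Both were undetected on microvesicle array 1, so these differences rest in part on a background value. The lowest detected value there, 6.51, is next to the Lsm11 cell mean of 6.52. Another tested Lsm12 probe was detected on microvesicle array 1 and not on microvesicle array 2.

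**Figure D3:**
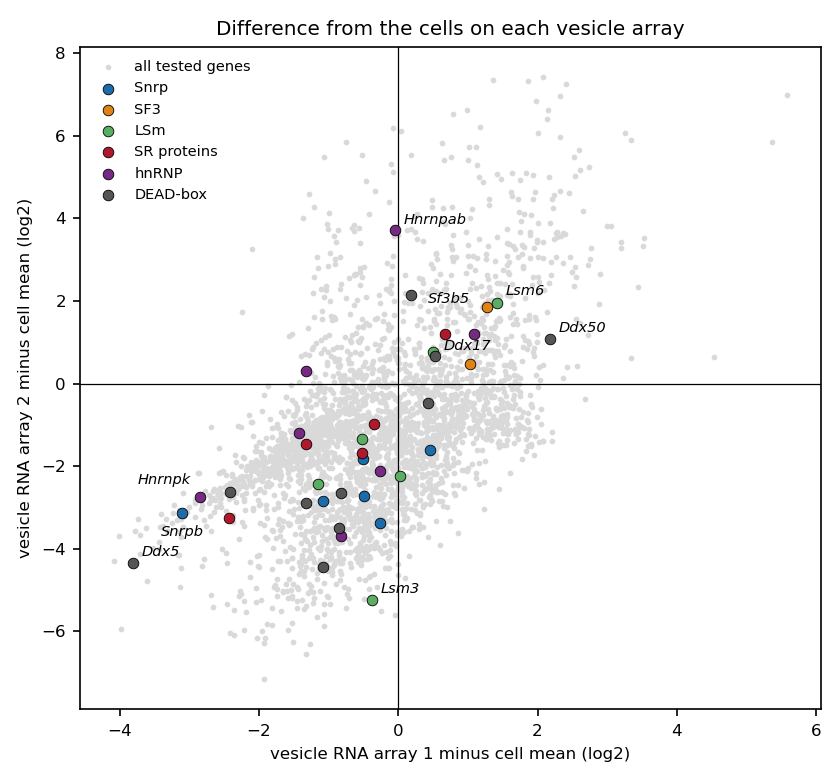
Each point is a tested gene, placed by its difference from the cell mean on microvesicle array 1 (x axis, log2) and on microvesicle array 2 (y axis, log2), with members coloured by family and all 3123 tested genes in grey. Values are quantile-normalized. Ddx5, Snrpb and Hnrnpk lie low on both axes, and Lsm6, Sf3b5 and Ddx50 high on both. Lsm3 and Hnrnpab depart mainly on microvesicle array 2.

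Of the SR protein genes, 4 of the 5 tested lay below the cells on both vesicle arrays and 1, Srsf1, above. Srsf5 was at 5.34 and 4.52 in vesicles, undetected on both arrays, and at 7.82 and 7.72 in cells, so the cells were at least 4.20-fold higher (limma adjusted p = 0.0917). Srsf10, which can repress splicing when dephosphorylated, had its tested probe detected in cells only, at 4.58 and 4.43 against 5.98 and 5.83. The bound for Srsf10 was at least 1.16-fold (limma adjusted p = 0.114). It rests on microvesicle array 2 alone, since the lowest detected value on microvesicle array 1, 6.51, is above the cell mean of 5.90. Srsf2, a factor long used to mark nuclear speckles, was detected on all 4 arrays at 8.51 and 7.89 in vesicles and 9.02 and 8.70 in cells, a difference of -0.66 ± 0.42 that became -1.77 with median scaling. Srsf1, the prototype of the family, was at 7.22 and 7.76 in vesicles and at 6.64 and 6.46 in cells (0.94 ± 0.38, limma adjusted p = 0.219). With median scaling the Srsf1 difference was 0.125 and its groups overlapped.

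The brightest of the members that microvesicle array 2 alone detected were also SR protein genes, picked out here after their values were seen. Srsf9 had a raw signal of 908 ± 34.8 (SE over beads) on microvesicle array 2, against 54.9 on microvesicle array 1 and 65.5 and 72.9 on the cell arrays. Srsf6 had 625 ± 20.6 on microvesicle array 2, against 69.3 on microvesicle array 1 and 67.5 and 70.1 on the cell arrays. On the other RNA arrays both stood at background. A second probe of Srsf1 showed the same pattern, with 747 ± 31.4 on microvesicle array 2 and 56.1 to 64.5 on the other RNA arrays.

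In all, 37 member probes of 34 genes were detected on microvesicle array 2 alone (24.3%, against 12.3% of all probes), and 0 on microvesicle array 1 alone (0.16% of all probes). Of these 37, 7 were SR protein probes of 16, 7 LSm probes of 20, 11 DEAD-box probes of 48, 6 hnRNP probes of 41, and 3 each Snrp and SF3 probes. Their raw signals on microvesicle array 2 ran from 110.0 to 908 with a median of 158, while on microvesicle array 1 none exceeded 72.6 and on the cell arrays none exceeded 77.8. The median raw signal over all probes was also highest on microvesicle array 2 (90.9), so the raw gaps include its background. After normalization some of the dimmer probes showed no gap: Ddx3x was at 4.97 on microvesicle array 2 and 5.00 on cell array 1. For the brightest probes the error over beads was small beside the gap, but no replicate array shows it. At the detection threshold chance gives 1.52 of 152 probes on an array.

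Among hnRNP genes, 4 of the 7 tested lay below the cells and 1 above. Hnrnpk, a protein that binds cytosine-rich RNA, was at 4.40 and 4.51 in vesicles, undetected on both arrays, and at 7.30 and 7.19 in cells. The cells were at least 2.93-fold higher (limma adjusted p = 0.0917), and the other Hnrnpk probes were detected on no RNA array. Hnrnpa2b1, whose protein is known in human cells to sort certain microRNAs into exosomes, was at 5.02 and 5.25 in vesicles and at 6.51 and 6.38 in cells. It was detected on microvesicle array 2 and in the cells, and on microvesicle array 2 it lay under both cell values. On microvesicle array 1 it was at background, where the lowest detected value, 6.51, is above the cell mean of 6.44, so that array cannot show a lower level. The fitted difference of -1.31 ± 0.33 (limma adjusted p = 0.125) rests in part on that background value. A second Hnrnpa2b1 probe gave -0.89.

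Hnrnpc, which binds uridine tracts, was at 9.71 and 7.87 in vesicles and at 10.11 and 9.85 in cells (-1.19 ± 0.77). Hnrnpl, which binds CA repeats, was at 8.19 and 5.32 in vesicles and at 9.15 and 8.86 in cells (-2.25 ± 1.13). Both were detected on all 4 arrays, with most of the quantile-normalized difference on microvesicle array 2: without it they were at -0.27 and -0.82. Raw signals were low on both vesicle arrays. They were 260 and 393 against 1636 and 1034 in cells for Hnrnpc, and 125 and 133 against 879 and 534 for Hnrnpl. With median scaling the differences were -2.33 and -3.27. Hnrnpa1, an abundant repressor of exon inclusion, had 6.31 and 6.43 in vesicles against 5.19 and 5.26 in cells (1.15 ± 0.32, limma unadjusted p = 0.0286, adjusted p = 0.134). Its detections were on microvesicle array 2 and cell array 1 only, the groups overlapped with median scaling, and a second probe gave 0.13. Hnrnpa1 has many near-identical processed pseudogenes, so its probes may not be specific to it. Hnrnpab had the highest difference of the family, 1.83 ± 1.44, with 9.09 on microvesicle array 2 and 5.25 to 5.50 on the other RNA arrays, so its groups overlapped.

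Of the DEAD-box genes 6 of the 10 tested lay below the cells, 3 above and 1 across. Ddx5, a helicase of splicing and transcription, was at 5.10 and 4.57 in vesicles and at 8.74 and 9.06 in cells, the lowest difference of any tested member. Its raw signals were 70.8 and 95.4 in vesicles against 669 and 607 in cells, and neither vesicle array detected it. The cells were at least 9.24-fold higher, with an adjusted p of 0.0917 in limma. All 4 RNA arrays detected its paralog Ddx17, with 9.03 and 9.16 in vesicles and 8.65 and 8.34 in cells (0.60 ± 0.34, adjusted p = 0.319). The direction of Ddx17 flipped to -0.58 with median scaling, and its 3 other probes were detected on no RNA array. Values of different probes cannot be set against each other, and the difference between the paralogs was not tested.

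Ddx39b, which acts in spliceosome assembly and mRNA export, was at 9.19 and 7.63 in vesicles and at 10.30 and 10.72 in cells, below the cells on both arrays (-2.11 ± 0.68, limma unadjusted p = 0.0427, adjusted p = 0.16). Ddx47 and Ddx27, helicases of ribosome assembly, both lay below the cells. Ddx47 was at 9.22 and 6.57 in vesicles against 10.15 and 10.01 in cells (-2.18 ± 1.04), and Ddx27 at 7.81 and 4.44 against 8.98 and 8.81 (-2.77 ± 1.30). Ddx27 was not detected on microvesicle array 2. Ddx28, a helicase of the mitochondrial ribosome, was detected in cells only, at 7.16 and 7.24 against 4.78 and 4.59, and the cells were at least 2.84-fold higher (limma adjusted p = 0.0917).

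Ddx50, a nucleolar helicase, was higher in vesicles at 7.79 and 6.70 against 5.53 and 5.69 in cells, detected on all 4 arrays (1.63 ± 0.52, limma unadjusted p = 0.0408, adjusted p = 0.157). It was the member gene whose vesicle arrays stayed above both cell arrays with median scaling, at a difference of 1.04. The other Ddx50 probes, 2 in number, were detected on no RNA array. Ddx6, which acts with the decapping machinery in cytoplasmic granules, was at 1.16 ± 0.80, with 5.53 and 7.48 in vesicles against 5.46 and 5.22 in cells, so that most of the difference lay on microvesicle array 2.

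**Figure D4:**
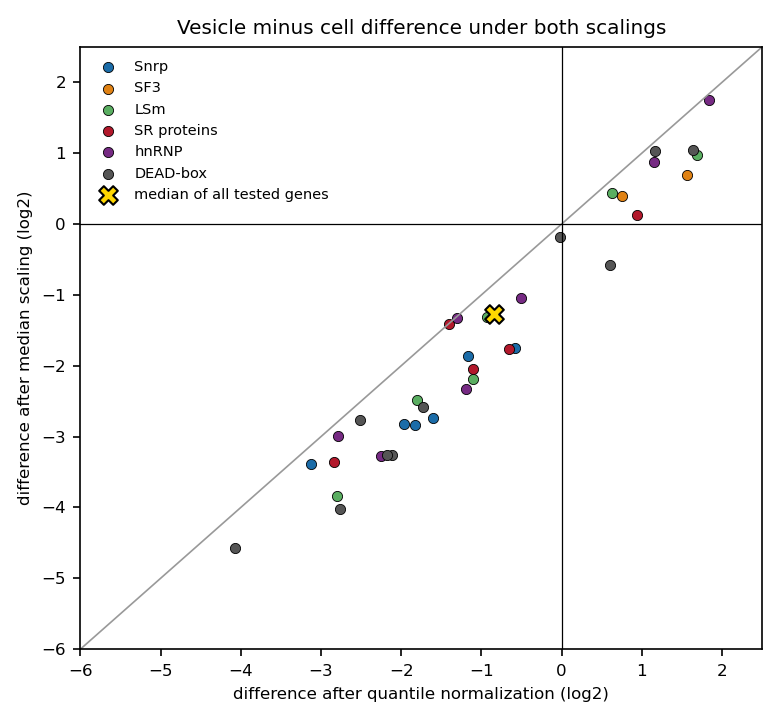
Vesicle minus cell difference (log2) of the 36 tested genes after quantile normalization (x axis) and after median scaling (y axis), with the line of equality and, as a cross, the median of all tested genes, which moved from -0.84 to -1.28. All 36 members lie under the line, and Ddx17 is the gene that changes sign.

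Probes of one gene often differed in detection. Of the 87 genes 39 had several probes, and in 26 of these the probes differed in the arrays that detected them. Counts of this kind were not made over all array genes with several probes, so they cannot be read as a trait of the splicing genes. Microvesicle array 2 alone detected 12.3% of all probes. In 9 genes (Ddx24, Ddx39b, Hnrnpc, Hnrnpm, Lsm12, Snrpb, Srsf1, Srsf10 and Srsf2) one probe was detected on both cell arrays and another on microvesicle array 2 alone. For Snrpb, probe ILMN_1223667 had raw signals of 334 and 260 in cells and 66.2 and 96.8 in vesicles. Probe ILMN_1239922 had 74.6 and 68.7 in cells and 64.9 and 182 in vesicles. The first is thus above background in cells alone and the second on microvesicle array 2 alone.

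For Srsf2, probe ILMN_1235653 measured 146 and 138 in cells and 66.5 and 97.4 in vesicles, and probe ILMN_2806029 measured 73.8 and 75.1 in cells and 69.7 and 257 in vesicles. Where 2 or more probes of a gene were tested, in 8 genes, the signs were opposite in 1, Hnrnpm, at -0.51 and 1.09. What part of a transcript each probe matches is not given in the files used here.

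**Figure D5:**
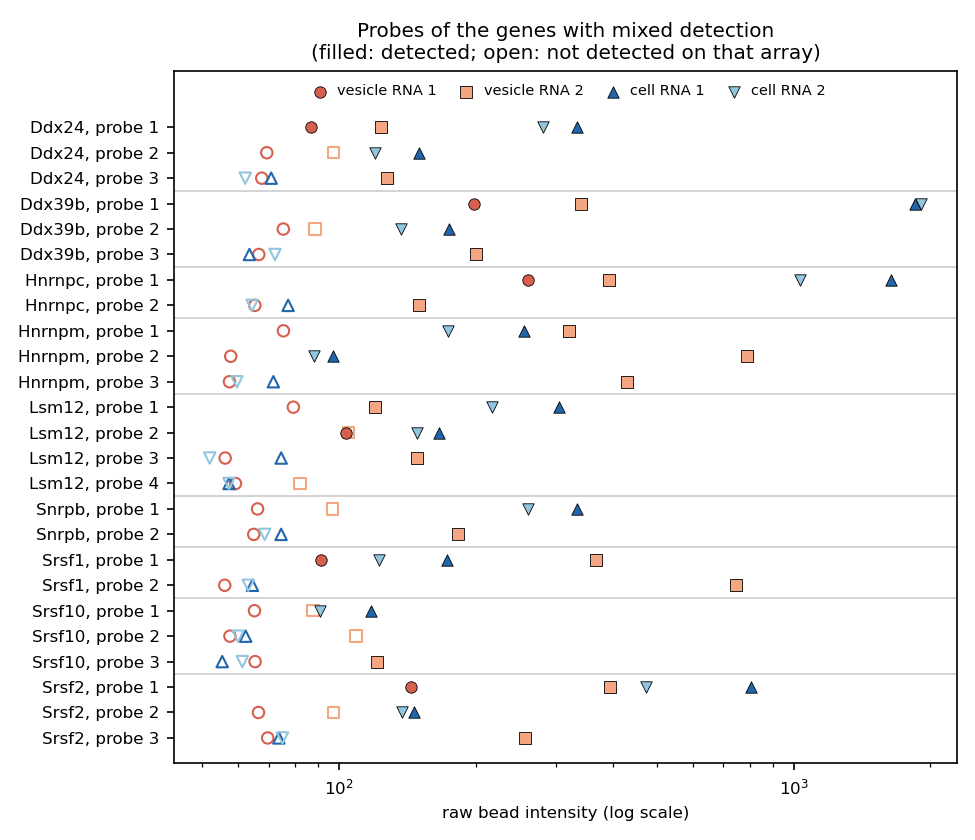
Raw bead intensity (log scale) of each probe of the 9 genes with mixed detection on the 4 RNA arrays, filled where detected and open where not. In each gene at least 1 probe has both cell arrays detected and another has microvesicle array 2 detected alone, such as the Srsf1 probe at 747.

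The DNA array gave little for these genes. It detected 2 member probes (1.32%, against 1.33% of all probes), where chance gives 1.52. They were Sf3b3, with a raw signal of 108 ± 4.63 (SE over beads), and Ddx4, with 94.1 ± 3.70. Ddx4, the germ cell helicase Vasa, was on the RNA arrays at 75.2 and 112 in vesicles and 79.6 and 85.0 in cells, a difference of -0.02 ± 0.50 (limma adjusted p = 0.987), and its other probes were detected on no RNA array. There is no second DNA array and so no test.

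Other genes of the pathway were described from 8 lists, with 177 of 203 genes on the array and 61 tested. In 39 of the 61 both vesicle arrays lay below the cells (63.9%, against 50.3% of all tested genes) and in 5 above (8.2%, against 14.9%), with a median of -1.18. Limma called 0, with 15 lower (24.6%, against 21.3%) and 0 higher (against 5.8%) at an unadjusted p under 0.05. Of the genes named from these lists, Sart1, Rbm5, Eif4a3, Upf1, Gemin7, Edc4 and Cnot10 were at background on microvesicle array 2 and Scaf1 on microvesicle array 1, so their differences rest in part on a background value. Proteins particular to single snRNPs and the tri-snRNP had 7 tested, of which 6 lay below and 0 above (median -1.66), among them Snrnp25 (-1.66 ± 1.16) and Txnl4a (-1.83 ± 1.33), with Sart1 at -2.82 ± 0.77. Of 4 tested branch site and 3′ splice site factors 3 lay below (median -2.35). Puf60, a partner of U2AF, was at -3.36 ± 1.26, Rbm5 at -2.28 ± 0.76, and Sf1, the branch point binding protein, was at least 3.13-fold higher in cells (limma adjusted p = 0.0974).

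Of 7 tested genes of the catalytic complex and the DEAH helicases 5 lay below and 0 above (median -2.23), including Prpf19 (-2.23 ± 1.10), Syf2 (-2.48 ± 1.63) and Dhx38 (-2.92 ± 1.17). The exon junction complex and export list had 9 tested, 5 below and 2 above (median -1.02). Eif4a3, the helicase that anchors the exon junction complex, was at -4.09 ± 1.44, Upf1 of nonsense-mediated decay at -2.63 ± 0.98, and Acin1 at least 1.51-fold higher in cells. The Acin1 cell values, 6.29 and 6.30, lie under the lowest detected value of microvesicle array 1 (6.51), so that bound rests on microvesicle array 2. Of 4 tested SR-related genes and kinases 3 lay below (median -0.89), with Tra2a at -0.70 ± 0.49 and Scaf1 at -2.29 ± 0.33 (limma adjusted p = 0.0917).

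Of 13 tested other splicing regulators 7 lay below and 2 above (median -0.95). Khdrbs3 was at -2.57 ± 0.74 and Khsrp at least 2.10-fold higher in cells, while Tardbp, encoding TDP-43, was detected on all 4 arrays at 8.46 and 8.45 in vesicles and 8.33 and 8.26 in cells (0.16 ± 0.32). Of 7 tested genes of Sm assembly 4 lay below and 0 above (median -1.18), with Smn1 at -2.30 ± 1.16, Gemin7 at -1.18 ± 1.29 and Sart3 at least 2.40-fold higher in cells. Of 10 tested genes of decapping and decay 6 lay below and 1 above (median -1.0), with Edc4 at -3.50 ± 1.14, Cnot10 at -1.12 ± 1.05 and the exonuclease Xrn1 at least 1.62-fold higher in cells. The Xrn1 cell values, 6.54 and 6.25, lie around the lowest detected value of microvesicle array 1 (6.51), so that bound rests on microvesicle array 2.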

How the data were processed

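Illumina mouse BeadChips measured RNA of HL-1 cells and their microvesicles (2 arrays each) and microvesicle DNA (1 array). The authors deposited an average intensity per probe, taken over its beads on a linear scale and not background-subtracted. Beside it the deposited columns hold the standard error of that signal over beads, the count of beads, and a detection p-value, per the file headers. A second deposited table holds background-subtracted intensity values, used as an alternative, and how it was made is not given in these sources. The submitters' processing notes name BeadStudio 3.3.

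Intensities of the 4 RNA arrays were background-corrected from detection p (offset 16) and quantile-normalized with neqc in limma 3.58.1 (R 4.3.3). The offset compresses differences of dim probes. Probes with detection p under 0.01 on at least 2 RNA arrays were fitted by lmFit and eBayes in a two-sided test, with p-values adjusted (Benjamini-Hochberg) over all 3878 tested probes. The procedure was also tested on simulated data. Where no array of a group detected a probe, a bound is given: the brighter group's mean against the dimmer group's mean of, per array, the higher of the probe's value and the lowest detected value. The brightest tested probe stands for a gene. Platform symbols named probes, and all 87 member symbols were found in RefSeq.

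Members and lists were chosen with earlier results of these data known. By rule, the members named are the 10 with the smallest p, the 10 with the highest mean in cells and the 10 in vesicles, any detected on the DNA array or on both vesicle arrays and no cell array, the 5 largest differences each way among those at least 2-fold on both vesicle arrays, and up to 2 per family otherwise unnamed. From each other list the 2 tested genes with the highest cell mean and the 1 with the smallest p are named. Other genes were picked after their values were seen. Alternatives were scaling, filter, offset, chip block, variance trend and leaving out each array. No pairing was used in the main fit. The deviations of same-numbered arrays correlated at -0.24. With 2 arrays per group the crossed pairing gives the same value with the sign reversed, so it cannot decide whether arrays were paired.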

Additional observations from a re-analysis of the deposited data

How the results depend on the processing

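With 2 arrays per group the precision is low, the vesicle arrays lie farther apart than the cell arrays do, and counts of calls moved widely. Against 0 higher and 0 lower member genes at an adjusted p of 0.05, limma called 20 lower with median scaling (55.6%, against 42.7% of all tested genes), 18 lower with no normalization between arrays (50%, against 37.3%), 3 lower with no filter (3.45%, against 0.687%) and 6 lower with a variance trend (16.7%, against 15.1%). With chip as a block it called 6 higher (16.7%, against 26.3%) and 18 lower (50%, against 42.9%). Leaving out 1 array gave 0 to 9 higher and 0 to 24 lower; the calls came without a vesicle array, where the spread is that of the cells and the lone vesicle array is assumed to vary like them. Without microvesicle array 1 there were 9 higher (25%, against 17.5% of all tested genes) and 24 lower (66.7%, against 70%), and without microvesicle array 2 the counts and shares were those of the chip block, 6 and 18. With the replicate number as a block 0 were called each way, with a median of -1.18. The correlation of -0.24 between the deviations of same-numbered arrays does not settle whether arrays were paired. The crossed pairing, an alternative chosen after seeing the data, also called 0 each way. Genes below the cells on both vesicle arrays numbered 22, and 11 among those detected on all 4 arrays, where fewer genes were counted. Genes above numbered 9, with 1 under median scaling, 1 with no normalization, 15 with no filter and 5 among those on all 4 arrays. The median difference of -1.18 went to -0.061 with no filter, which adds genes at background. The DNA array detected 6 member probes at a detection p under 0.05, where chance gives 7.60. Signs changed for Ddx17 (-0.58 with median scaling, -0.50 with no normalization), Lsm4 (0.029 with the chip block, -2.24 to 0.029 on leaving out an array), Snrpd2 (0.46 with the chip block, -1.61 to 0.46) and Ddx4 (0.0037 with an offset of 50, 0.43 with the chip block, -0.46 to 0.43). The cause of these changes was not tested. Averaging the tested probes of a gene and the processed values deposited by the authors changed no sign and no call among the named genes, and normalizing all 5 arrays together changed none either.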
